A study of Homo sapiens with 6 samples.

Results

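The 10 genes described here, ETV1, ETV4, ETV5, ETV6, ERG, ETS1, ETS2, ELK1, ELF1 and GABPA, encode members of the ETS family of transcription factors other than FLI1. They were taken by symbol from a table of 25268 gene symbols, and all 10 symbols were found. RNA was measured in A673 cells, an established line of Ewing sarcoma with a fusion of EWSR1 to FLI1, at 72 h of transfection with esiRNA, a pool of short interfering RNAs cut by enzyme from long double-stranded RNA. Cells received esiRNA against GFP, which served as the non-targeting control, esiRNA against FLI1, or esiRNA against USP9X, a deubiquitinase. Each of the 3 groups had 2 libraries, numbered 1 and 2, and no allele or drug beyond the esiRNA is named for any group. All groups are the same single line, so they model Ewing sarcoma in that line only. The study asked how the transcriptome changes after loss of USP9X and after loss of EWS-FLI1.

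ETS factors share a DNA-binding domain that recognises a GGAA core, and members differ in the flanking bases they prefer, in their partner proteins and in whether they activate or repress. EWS-FLI1 joins the activation region of EWSR1 to the ETS domain of FLI1, and it binds both single ETS sites and repeats of GGAA. ETV1, ETV4 and ETV5 form the PEA3 subfamily, whose activity follows ERK signalling, and in some Ewing tumours EWSR1 is fused to ERG, ETV1, ETV4 or FEV in place of FLI1.

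Values are FPKM, which scales fragments to transcript length and to the fragments mapped in a library, so they are per length and can be set between genes. Library sums ran from 781732 to 907926 FPKM, and 11310 to 12071 symbols reached 1 FPKM. The symbol MIR6723 held between 33.2% and 50.9% of a library's sum, with the highest share in esiFLI1 replicate 2. Read depth is unknown, so precision at low FPKM cannot be stated and a low value cannot be read as absence. Of 10 Ewing sarcoma markers, 9 passed the filter on low values described below. Their summed level was 451 to 521 FPKM in esiGFP, 199 to 246 in esiFLI1 and 530 to 538 in esiUSP9X, while CD99, a surface marker of the tumour, was listed at 0 in every library. The reason for that 0 was not tested, and it is not read as absence of CD99 RNA.

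The targeted genes were lower in their own groups. The control libraries held FLI1, including the part in the fusion, at 24.1 and 36.4 FPKM, the esiFLI1 libraries at 12.7 and 14.1, and the esiUSP9X libraries at 25.0 and 31.9. For USP9X the 3 pairs were 20.6 and 26.5 FPKM (esiGFP), 26.2 and 37.7 (esiFLI1), and 5.31 and 7.10 (esiUSP9X). For EWSR1, whose first part is in the fusion, they were 105 and 117 FPKM (esiGFP), 94.1 and 84.9 (esiFLI1), and 108 and 113 (esiUSP9X). FLI1 and USP9X in their own groups lay below both control libraries. Tests used limma on log2(FPKM + 1) over genes that reached 1 FPKM in 2 or more libraries, and a gene was called at a Benjamini-Hochberg adjusted p under 0.05. In that test neither target passed in its own comparison with esiGFP, with an adjusted p of 0.128 for FLI1 (log2 change -1.09, SE 0.27) and 1 for USP9X (log2 change -1.77, SE 0.28). With the replicate number as a block, called the blocked fit below, the adjusted p was 0.000439 for FLI1 and 0.000453 for USP9X.

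In control cells the 10 genes spanned a wide range of levels, and 6 of them lay close together at the top. The mean level in esiGFP was 26.1 ± 2.84 FPKM for ETV5 (SD, n = 2), followed by GABPA, ELF1, ETV1, ETV4 and ELK1, the last at 11.9 ± 2.97 FPKM. Each gene in that run overlapped the next, so the order of neighbours is not resolved. ETS2 at 5.54 ± 0.765 FPKM and ETV6 at 3.50 ± 0.0288 FPKM stood below them without overlap, and ETS1 and ERG were under 1 FPKM. The order of the means in esiUSP9X was that of esiGFP. In esiFLI1 GABPA led at 24.8 ± 10.2 FPKM with ELF1 next, and ETV5 stood between ETV1 and ETV6 at 8.66 ± 1.42 FPKM. ETV6, at 5.76 ± 0.136 FPKM there, stood above ETS2 and ETV4, which overlapped each other. ETV1, ETV4 and ETV5 together made up 47.7% and 46.8% of the 10 genes' summed FPKM in the esiGFP libraries, 26.8% and 23.2% in esiFLI1, and 48.9% and 44.3% in esiUSP9X.

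**Figure D1:**
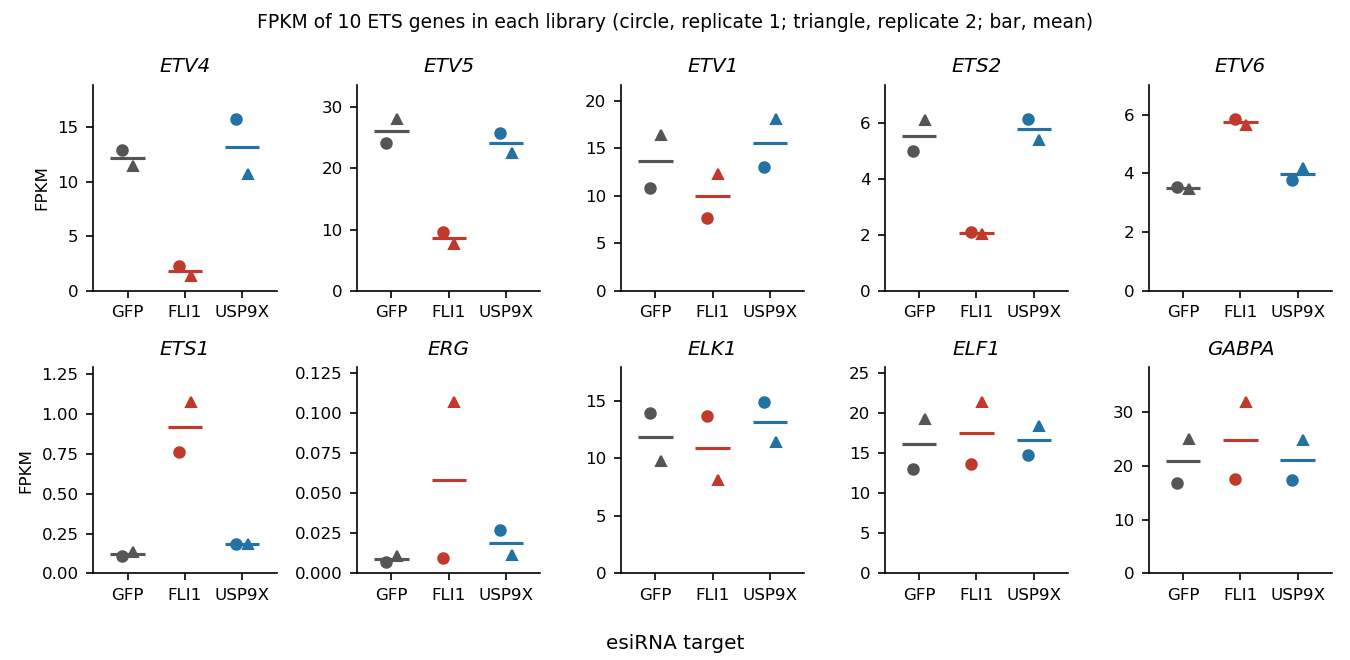
FPKM (y axis, a scale of its own in each panel, from 0) of the 10 ETS genes in the esiGFP, esiFLI1 and esiUSP9X libraries, with a circle for replicate 1, a triangle for replicate 2 and a bar for the mean. ETV4, ETV5 and ETS2 are lower in both esiFLI1 libraries than in the other 4, ETV6 and ETS1 are higher in both, and ETV1, ELK1, ELF1 and GABPA overlap between groups.

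In the esiFLI1 comparison ETV4 and ETV5 were called lower without a block, and 0 of the 8 genes tested were called higher. These 2 of 8 stand against 2.81% of the 12169 genes tested that were called in either direction, 0.23% lower and 2.58% higher. The blocked fit called 5 of 8, with ETV4, ETV5, ETS2 and ETV1 lower and ETV6 higher, but it also called 42.1% of all genes, 21.6% lower and 20.6% higher. The median log2 change of the 8 genes was -0.28, against -0.03 for all genes tested. ETS1 and ERG stayed under the filter and are described from a fit without it. The labels do not say whether replicates were separate cultures, and p-values therefore reflect only the variation among these libraries, which may be technical. In bulk RNA, fewer cells of a type and less RNA per cell cannot be told apart.

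ETV4, a PEA3 activator, was at 12.9 and 11.5 FPKM under esiGFP, 2.31 and 1.36 under esiFLI1, and 15.8 and 10.7 under esiUSP9X. Both esiFLI1 libraries lay far below the other 4, and the mean in esiFLI1 was 6.65-fold below that in esiGFP. The log2 change was -2.24 (SE 0.28, adjusted p 0.027 by limma). It was the largest decrease among the 10 genes on this scale.

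ETV5, the second PEA3 member, had the highest mean of the 10 in control cells and was at 24.1 and 28.1 FPKM there. It was at 9.67 and 7.66 FPKM in esiFLI1 and at 25.8 and 22.5 in esiUSP9X. The esiFLI1 libraries did not overlap the others, with a mean 3.01-fold below esiGFP. The log2 change was -1.49 (SE 0.21, adjusted p 0.0355 by limma).

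ETV1, the third PEA3 member, was at 10.8 and 16.4 FPKM under esiGFP, 7.62 and 12.3 under esiFLI1, and 13.0 and 18.1 under esiUSP9X. Its groups overlapped, but within each replicate number esiFLI1 was the lowest of the 3 groups. The log2 change from esiGFP to esiFLI1 was -0.42 with an adjusted p of 0.675 by limma (SE 0.34), and in the blocked fit its SE was 0.10 and its adjusted p 0.0128. That blocked call was lost without esiGFP replicate 2 or without esiFLI1 replicate 1 (adjusted p up to 0.0823), when the values were scaled to the sum of kept genes (adjusted p 0.0624), and in 6 of 6 fits that left out a library with no filter (adjusted p up to 0.247). Without a block, leaving out a library moved the log2 change of ETV1 between -0.73 and -0.11.

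Without a block, leaving out any 1 of the 6 libraries ended the calls of ETV4 and ETV5, with adjusted p-values by limma of 0.0738 to 0.189 for ETV4 and 0.0958 to 0.264 for ETV5. Fitting only the 2 groups compared also ended them, at 0.0741 and 0.139. Blocked fits that left out 1 library, here and for the other genes, kept 1 residual degree of freedom. Their p-values rest more on the spread shared over all genes than on a gene's own. A call kept in them is therefore not read as evidence of stability. With the block and no filter on low values, neither ETV4 nor ETV5 was called in every such fit.

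ETS2 belongs to the ETS1/ETS2 subfamily, whose members are phosphorylated by ERK. It was at 4.998 and 6.08 FPKM under esiGFP, 2.09 and 2.02 under esiFLI1, and 6.14 and 5.40 under esiUSP9X. The esiFLI1 libraries were close to each other and below all others, with a mean 2.70-fold under esiGFP. The log2 change was -1.10 (SE 0.18, adjusted p 0.0544 by limma), and the blocked fit gave an adjusted p of 0.000554. The blocked call was kept in 6 of 6 fits that left out a library, at an adjusted p of at most 0.0225, and in 0 of 6 when the filter was also dropped (adjusted p up to 0.167).

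Since ETS2 was lower alongside ETV4 and ETV5, its promoter windows are shown, 250 bases before to 50 after 2 annotated starts (RefSeq, GRCh38.p14, chromosome 21, plus strand), with each GGAA or its reverse complement TTCC in capitals. The deposited values use hg19/GRCh37, so only the symbol links them to these windows. The first holds 4 matches, a number that 46.0% of 35116 windows of the same length reach, and the second holds 7, which 8.29% reach. The second is rich in pyrimidine runs that contain TTCC. ETS2 chr21:38804933-38805232:
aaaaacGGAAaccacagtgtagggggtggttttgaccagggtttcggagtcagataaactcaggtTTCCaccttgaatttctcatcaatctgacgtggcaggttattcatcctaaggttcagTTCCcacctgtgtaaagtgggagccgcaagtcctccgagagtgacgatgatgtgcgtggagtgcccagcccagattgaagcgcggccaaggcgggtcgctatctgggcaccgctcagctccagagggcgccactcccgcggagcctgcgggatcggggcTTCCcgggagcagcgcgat
ETS2 chr21:38805679-38805978:
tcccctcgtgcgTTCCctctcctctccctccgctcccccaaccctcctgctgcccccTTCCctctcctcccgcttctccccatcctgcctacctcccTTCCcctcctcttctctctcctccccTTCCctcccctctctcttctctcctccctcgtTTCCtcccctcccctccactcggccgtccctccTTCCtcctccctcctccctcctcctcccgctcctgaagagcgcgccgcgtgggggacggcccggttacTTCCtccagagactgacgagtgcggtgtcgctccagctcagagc

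ETV6, a member that represses transcription, was at 3.52 and 3.48 FPKM under esiGFP, 5.86 and 5.67 under esiFLI1, and 3.77 and 4.19 under esiUSP9X. The esiFLI1 libraries were the highest and the replicates agreed closely, with a mean 1.65-fold above esiGFP. The log2 change was 0.59 with an adjusted p of 0.173 by limma (SE 0.17), and in the blocked fit the adjusted p was 0.00426, with a call in 6 of 6 fits that left out a library and in 0 of 6 when the filter was also dropped (adjusted p up to 0.219). ETV6 ran opposite in direction to ETV4, ETV5 and ETS2, and its promoter window is shown for comparison with those of ETS2 (RefSeq, GRCh38.p14, plus strand, the same capitals). It holds 4 matches, as many as the first ETS2 window. ETV6 chr12:11649424-11649723:
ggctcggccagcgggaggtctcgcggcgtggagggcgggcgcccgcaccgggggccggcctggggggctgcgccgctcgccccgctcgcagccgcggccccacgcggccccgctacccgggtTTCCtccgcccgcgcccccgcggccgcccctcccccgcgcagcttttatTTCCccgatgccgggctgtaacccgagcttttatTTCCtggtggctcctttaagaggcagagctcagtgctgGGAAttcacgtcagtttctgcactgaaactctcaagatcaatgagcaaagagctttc

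Libraries did not overlap, with esiFLI1 lower, for ETV4, ETV5 and ETS2 among the 8 genes, and 17.3% of all genes tested did the same. ETV6 did so in the higher direction, as did 19.8% of all genes.

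ETS1, a factor prominent in lymphocytes and endothelium, was at 0.108 and 0.137 FPKM under esiGFP, 0.763 and 1.08 under esiFLI1, and 0.186 and 0.182 under esiUSP9X. The esiFLI1 libraries were above all others, with a mean 7.52-fold that of esiGFP, though 5 of the 6 values were under 1 FPKM. In the fit without a filter the log2 change was 0.77 (SE 0.086, adjusted p 0.0278 by limma), where 2.67% of 19453 symbols were called higher and 2.87% in either direction. That call was lost without either esiGFP library or either esiUSP9X library, with an adjusted p of up to 0.205. In the blocked fit without a filter the adjusted p was 0.0117, where 12.9% of symbols were called higher and 21.8% in either direction, and the call was lost without either esiGFP library or either esiFLI1 library, with an adjusted p of up to 0.167.

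Some markers of the cell types that use ETS1 were higher in the same libraries. The 8 endothelial markers summed to 19.6 to 22.8 FPKM in esiGFP and 30.8 to 51.9 in esiFLI1, mostly from EMCN. KDR, a VEGF receptor, was at 1.30 and 1.33 FPKM in esiFLI1 and between 0.0885 and 0.153 in the other 4 libraries, so it passed the filter only through esiFLI1 and is given without a test. The 6 leukocyte markers summed to 2.77 to 3.90 FPKM in esiGFP and 4.60 to 8.01 in esiFLI1, mostly from CD68. In esiUSP9X the sums were 16.8 to 24.7 and 1.91 to 2.08 FPKM. Under 1 FPKM in every library were 5 of the 8 endothelial markers, including PECAM1, CDH5 and VWF, and 5 of the 6 leukocyte markers, including PTPRC and CD3E, the latter listed at 0 throughout. Their part in the ETS1 result was not tested.

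ERG, the closest relative of FLI1 in this set, was at 0.00717 and 0.0112 FPKM under esiGFP, 0.00960 and 0.107 under esiFLI1, and 0.0270 and 0.0114 under esiUSP9X. A single esiFLI1 library held the highest value, and the other 5 were at 0.0270 FPKM or less. The log2 change in esiFLI1 was 0.07 without a filter and did not pass (SE 0.046, adjusted p 0.608 by limma).

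ELK1, ELF1 and GABPA were not called in either fit. ELK1, which joins the serum response factor SRF at promoters of immediate early genes, was at 14.0 and 9.75 FPKM under esiGFP, 13.6 and 8.14 under esiFLI1, and 14.9 and 11.4 under esiUSP9X. ELF1, an ETS factor known from lymphoid genes, was at 13.0 and 19.2 FPKM under esiGFP, 13.6 and 21.4 under esiFLI1, and 14.7 and 18.4 under esiUSP9X. GABPA, the DNA-binding subunit of GABP, which controls many housekeeping and mitochondrial genes, was at 16.8 and 25.0 FPKM under esiGFP, 17.6 and 32.0 under esiFLI1, and 17.4 and 24.9 under esiUSP9X. For all 3 genes the gap between replicates exceeded the gap between group means. The blocked 95% intervals of the log2 change in esiFLI1 were -0.39 to 0.13 for ELK1, -0.15 to 0.36 for ELF1 and -0.06 to 0.47 for GABPA.

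GABPA held the only one of the 18 windows of these genes that matches CCGGAAGT, the strong ETS consensus, on either strand. That motif contains GGAA and occurs in 4.14% of all windows. The window is shown for contrast with those of ETS2 and ETV6 (RefSeq, GRCh38.p14, plus strand, the same capitals), and the longer match is the reverse complement around its first TTCC. It holds 2 GGAA matches, fewer than the median of 3 over all windows. GABPA chr21:25734722-25735021:
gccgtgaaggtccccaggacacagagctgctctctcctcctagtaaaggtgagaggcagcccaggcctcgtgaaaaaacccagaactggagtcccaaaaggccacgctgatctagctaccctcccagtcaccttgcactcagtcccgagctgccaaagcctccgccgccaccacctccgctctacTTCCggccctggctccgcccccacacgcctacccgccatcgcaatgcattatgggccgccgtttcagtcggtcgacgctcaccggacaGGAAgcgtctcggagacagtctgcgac
Windows were found for 7 of the 10 genes, not for ETV4, ETV5 or ETS1. GGAA on either strand was in 95.5% of all windows, and GGAAGGAA, which holds a pair of GGAA, was in 3.67%. Among the 18 windows GGAAGGAA occurred in an overlapping pair of ETV1 windows (chr7:13990653-13990952 and chr7:13990657-13990956) and in a window of ELF1 (chr13:40982850-40983149), with 1 match each. A match describes these letters in these windows and is not a measured binding site.

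**Figure D2:**
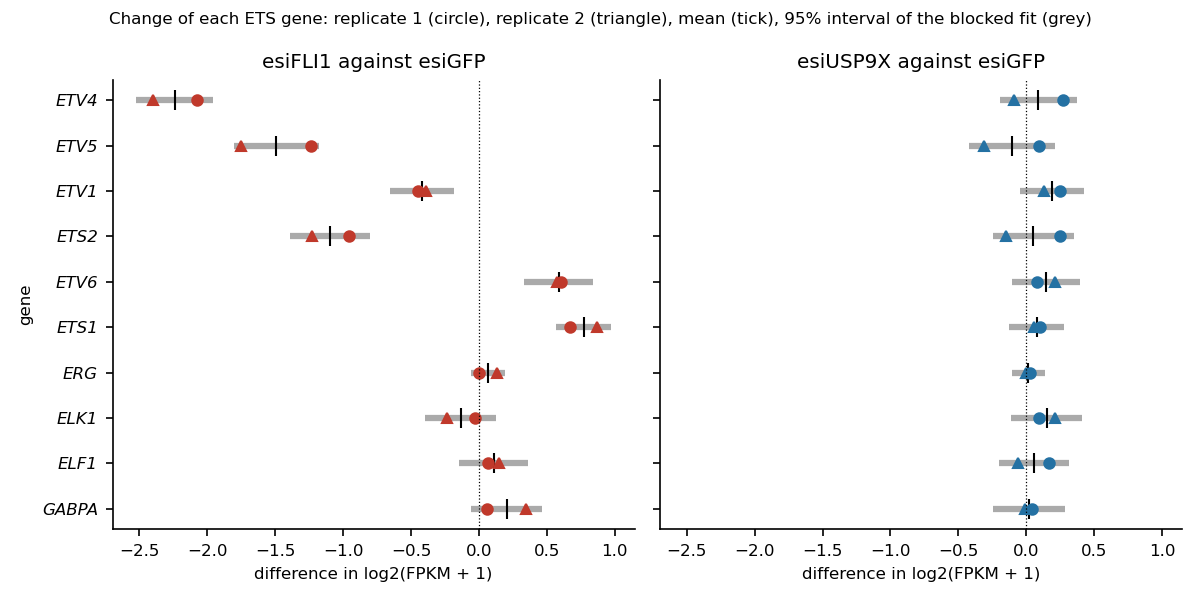
Difference in log2(FPKM + 1) from esiGFP (x axis) for each ETS gene, in esiFLI1 (left) and esiUSP9X (right), with a circle for replicate 1, a triangle for replicate 2, a tick for the mean and a grey bar for the 95% interval of the blocked fit (without a filter for ETS1 and ERG). In esiFLI1 the intervals of ETV4, ETV5, ETS2 and ETV1 lie below 0 and those of ETV6 and ETS1 above it, and in esiUSP9X every interval includes 0.

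After USP9X esiRNA 0 of the 8 genes tested were called in either fit, where 0.0247% of all genes were called without a block and 0.238% with it. At an unadjusted p under 0.05 limma picked 0 of the 8 genes and 114 of all genes without a block. The fitted log2 changes ran from -0.11 for ETV5 to 0.19 for ETV1, with a median of 0.07 against -0.01 for all genes. In the blocked fit the 95% intervals of the 8 genes all lay between -0.42 and 0.43, so changes within that range remain possible. ETV4 had an interval of -0.20 to 0.37 and ETV5 of -0.42 to 0.21.

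ETV6 was higher in both esiUSP9X libraries than in both esiGFP libraries, by a log2 change of 0.14 with a blocked interval of -0.11 to 0.40. It was the only one of the 8 whose libraries did not overlap, as were those of 8.75% of all genes in that direction and 7.82% in the other. ETS1, under the filter, changed by 0.08 on the log2 scale (blocked interval without a filter -0.12 to 0.28).

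Setting the esiUSP9X libraries against the esiFLI1 libraries tested the difference between the knockdowns, and it shares its esiFLI1 libraries with the first comparison. ETV4, ETV5 and ETS2 were higher in esiUSP9X, 3 of 8 tested, where 3.08% of all genes were called, 0.419% higher and 2.66% lower. The log2 differences were 2.33 for ETV4 (SE 0.28), 1.39 for ETV5 (SE 0.21) and 1.15 for ETS2 (SE 0.18), with adjusted p-values by limma of 0.024, 0.03999 and 0.0463. Leaving out any 1 library ended each call without a block, with adjusted p-values of up to 0.202, 0.383 and 0.418, and in the blocked fit each was kept in 6 of 6, or in 0 of 6 when the filter was also dropped. The blocked fit also called ETV1, at 0.61 (adjusted p 0.00258), and ETV6, at -0.44 (adjusted p 0.0141), where 41.1% of all genes were called, 20.2% higher and 20.9% lower. The ETV6 call was lost without either esiFLI1 library or esiUSP9X replicate 1, with an adjusted p of up to 0.116, and with all 6 libraries when the filter was dropped (0.0597). Without a block the ETS2 call was also lost with no filter (0.0736), a filter of 5 FPKM (0.085), quantile normalization (0.0553) or scaling (0.0519), and the ETV5 call with a filter of 5 FPKM (0.0545). With only the 2 groups compared, ETV4, ETV5 and ETS2 were all lost, at 0.073, 0.112 and 0.114. ETS1, without a filter, was lower in esiUSP9X by a log2 difference of -0.69 (adjusted p 0.0354, where 2.5% of symbols were called lower and 2.78% in either direction), and without either esiGFP or either esiUSP9X library its adjusted p reached up to 0.235.

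Replicates differed in the same way in every group for some members. Replicate 2 was above replicate 1 in all 3 groups for GABPA, ETV1 and ELF1, and below it for ELK1 and ETV4. These 5 of 8 genes kept a single sign over the 3 groups, as did 83.2% of all genes tested. The mean shift of log2(FPKM + 1) from replicate 1 to 2 was 0.62 for GABPA, whose longest coding transcript is 36.4% GC, 0.55 for ETV1 at 38.1% and 0.48 for ELF1 at 38.1%. ELK1 at 57.0% GC shifted by -0.50 and ETV4 at 60.8% by -0.39, while ETV5, ETS2 and ETV6, between 47.3% and 48.7%, shifted by -0.09, 0.02 and 0.02. Across 11011 genes in the same 6 libraries, the Pearson correlation of this shift with GC content was -0.867, a description over genes that are not independent. The esiFLI1 change had a correlation with GC content of -0.120.

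**Figure D3:**
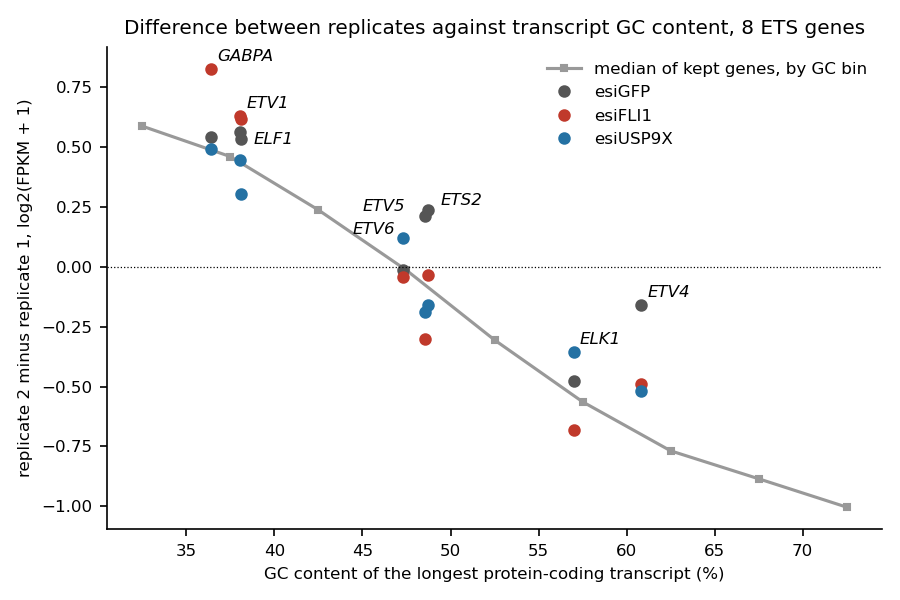
Replicate 2 minus replicate 1 in log2(FPKM + 1) (y axis) against the GC content of the longest protein-coding transcript (x axis, percent) for 8 ETS genes, a point per group, with the median of all kept genes in each GC bin as the grey line. GABPA, ETV1 and ELF1 lie above 0 at low GC content and ELK1 and ETV4 below 0 at high GC content, on the same side of 0 as the grey line.

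Genes with the pattern most like each called member were found by the root mean square difference of their centred log2(FPKM + 1) over the 6 libraries. Nearest to ETV4 were PPP1R1A, a phosphatase inhibitor (0.157), FEZF1-AS1, a non-coding RNA (0.200), and ATF5, a stress-related transcription factor (0.245). Measured from ETV4, ETV5 ranked 17th and ETS2 68th. ETV5 was nearest to SOX1, a neural transcription factor (0.104), PSAT1, an enzyme of serine synthesis (0.120), and SEC11C, a signal peptidase subunit (0.127). Measured from ETV5, ETS2 ranked 16th and ETV4 481st. For ETS2 the nearest were ADAMTS1, a secreted protease (0.0695), ODC1, the first enzyme of polyamine synthesis (0.0726), and CTH, an enzyme of cysteine synthesis (0.0741). Measured from ETS2, ETV5 ranked 79th and ETV4 5548th, so a near rank was not always mutual. PSAT1 was at 209 and 223 FPKM under esiGFP, 72.6 and 75.0 under esiFLI1 and 195 and 194 in esiUSP9X, the low esiFLI1 pair of ETV5 at a higher level.

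The rest of the family held 17 genes, of which 7 passed the filter. In the esiFLI1 comparison 0 of the 7 were called, where 2.81% of all genes were called, so the count is not read as a result about them. Their median log2 change was 0.27, with FEV included, against -0.03 for all genes tested. FEV, a family member that also occurs in Ewing fusions, was at 1.61 and 1.32 FPKM under esiGFP, 0.0707 and 0.154 under esiFLI1, and 1.15 and 0.593 under esiUSP9X. Both esiFLI1 libraries were the lowest, and since FEV passed the filter only through the groups where it was high, it is given without a test. Leaving FEV aside, the blocked fit called 2 of these genes, both higher, where it called 20.6% of all genes higher. They were ELK4, another SRF partner, at 0.37 (adjusted p 0.0341) and ELF4 at 0.38 (adjusted p 0.0478). ELK3, at 31.8 to 46.4 FPKM the most abundant of the family, and the repressor ERF, which antagonises PEA3 targets, were not called in either fit.

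**Figure D4:**
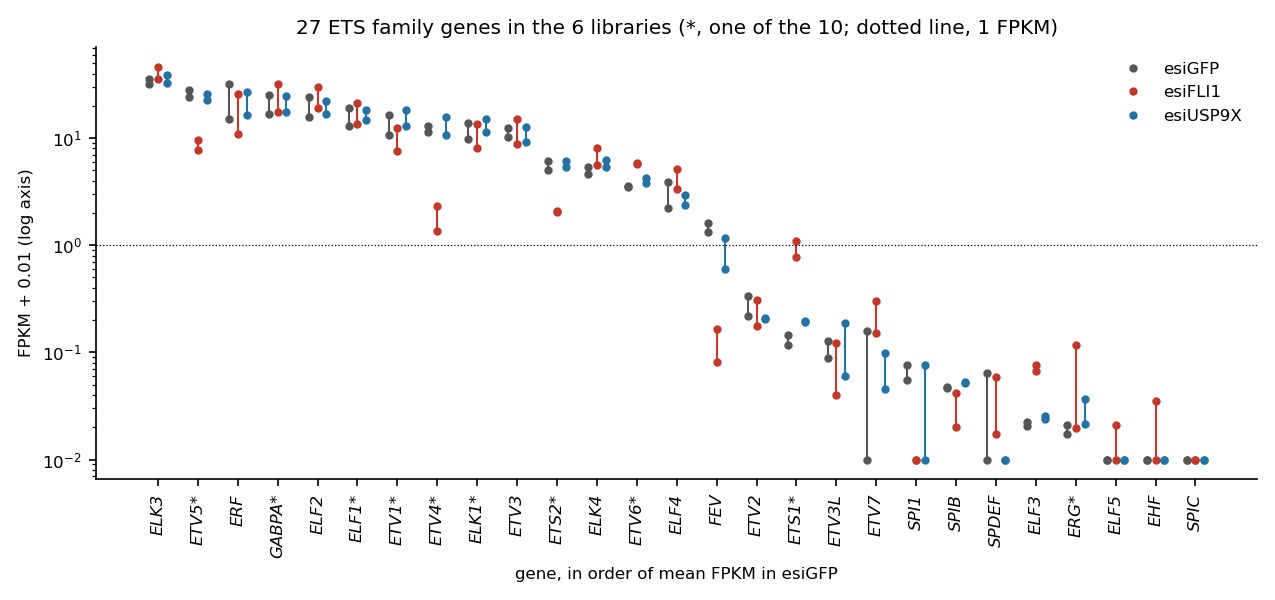
FPKM + 0.01 on a log axis (y axis) of 27 ETS family genes, in order of their mean in esiGFP (x axis), with 2 points per group joined by a line, an asterisk on the 10 genes described and a dotted line at 1 FPKM. ETV5, ETV4, ETS2, FEV and SPIB have both esiFLI1 points below those of the other groups, and ETV6, ETS1 and ELF3 have both above. SPIB and ELF3 are under 1 FPKM in every library.

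Among 15 partners and regulators of ETS factors, 14 were tested and 1 was called in esiFLI1, where 2.81% of all genes were called, with a median log2 change of 0.06. ATXN1, which works with the repressor CIC, was at 1.98 and 1.80 FPKM under esiGFP and 5.94 and 6.70 under esiFLI1, and it rose by 1.34 on the log2 scale (adjusted p 0.0256 by limma). CIC itself, which represses PEA3 genes, changed by 0.11, and RFWD2, the ubiquitin ligase COP1 that marks PEA3 proteins for degradation, by 0.08, and neither was called in either fit. The blocked fit, which called 42.1% of all genes, also called GABPB1, the partner subunit of GABPA, at -0.42 (adjusted p 0.0256) and CBFB, a subunit of RUNX complexes, at -0.38 (adjusted p 0.0207).

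Genes that report ERK signalling, which also acts on PEA3 factors, moved in both directions. Of 15 tested, 4 were called higher and 1 lower in esiFLI1, where 2.58% of all genes were called higher and 0.23% lower. The median log2 change was -0.06, with 8 of the 15 changes below 0. How the calls of this list and of ATXN1 held with a library left out is not given here. The blocked fit called 6 in each direction, where it called 20.6% of all genes higher and 21.6% lower. SPRY1, an inhibitor of receptor tyrosine kinase signalling, was at 3.11 and 2.28 FPKM under esiGFP, 63.2 and 56.6 under esiFLI1, and 3.69 and 2.75 under esiUSP9X. It rose by 4.05 on the log2 scale (adjusted p 0.00577 by limma), PHLDA1, a growth regulator, by 2.97 (adjusted p 0.009), and SPRY2, a relative of SPRY1, by 1.70 (adjusted p 0.021). CCND1, which encodes cyclin D1, fell by 1.13 (adjusted p 0.0326). DUSP6, the ERK phosphatase, changed by 0.62 and was called only with the block (adjusted p 0.00167).

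**Figure D5:**
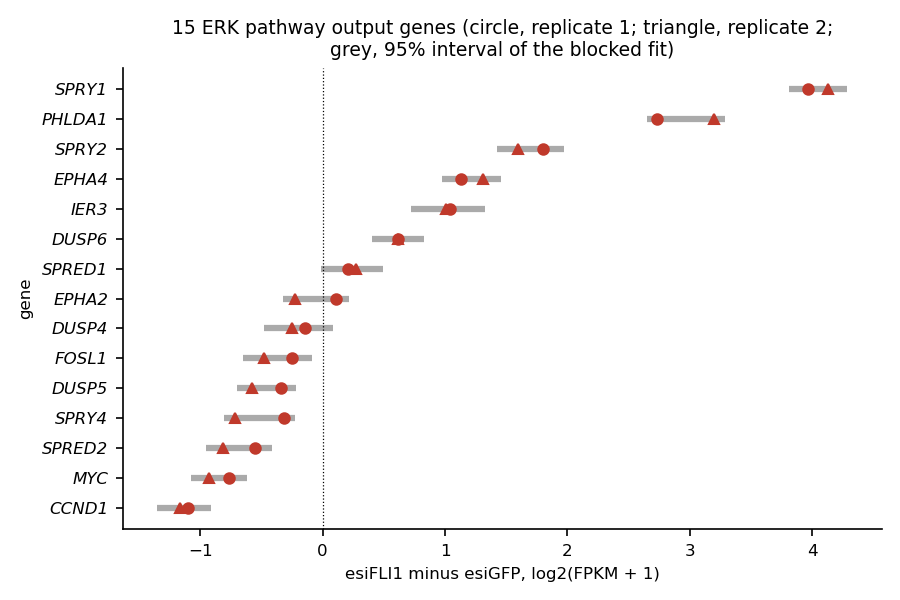
Difference in log2(FPKM + 1) between esiFLI1 and esiGFP (x axis) for the 15 ERK pathway output genes tested, with a circle for replicate 1, a triangle for replicate 2 and a grey bar for the 95% interval of the blocked fit. SPRY1 and PHLDA1 stand furthest to the right at 4.05 and 2.97, and CCND1 furthest to the left at -1.13.

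Gene groups read by ELK1 and GABP showed 0 calls in esiFLI1 without a block. The blocked fit called 21.6% of all genes lower and 42.1% in either direction, and nothing particular to these groups is read from their blocked counts. Of 6 serum response genes tested, the blocked fit called 2 lower, EGR1 at -1.40 (adjusted p 6.14e-05) and IER2 at -0.68 (adjusted p 0.00393), both immediate early genes, and the median was -0.33. Of 7 GABP target genes, it called 3 lower, TFAM, the mitochondrial DNA packaging factor, at -0.60 (adjusted p 0.00309) and the cytochrome oxidase subunits COX4I1 at -0.30 (adjusted p 0.0428) and COX5B at -0.51 (adjusted p 0.0466), and the median was -0.17. In the esiUSP9X comparison 0 genes of any of these lists were called, with or without the block.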

How the data were processed

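The deposited table holds FPKM made by the authors, a value per gene symbol and library. Per the labels' protocols, rRNA was depleted from 2 µg of total RNA and stranded libraries were read as 75-nt single ends. The submitters' processing notes name TopHat, Cufflinks, Cuffdiff, hg19 and GRCh37. Tool versions, annotation and strand use in counting were not given in the sources used here. Overlapping genes and reads shared by paralogs are therefore uncertain. No counts were used, so depth is unknown. Values under 0.05 FPKM showed no read-sized steps, with at most 4.09% in a bin.

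Genes were kept if 2 or more of the 6 libraries reached 1 FPKM, which left 12169. Their log2(FPKM + 1) values entered limma 3.58.1 under R 4.3.3 (lmFit, then eBayes with its trend option), with 3 group means in a single fit, two-sided tests and Benjamini-Hochberg adjustment over all genes tested. Fold changes on this scale understate low genes. Without a filter, 19453 symbols above 0 in some library were tested. Of the kept genes, 107 were listed at 0 in at least 1 library. The stray last line was dropped, and 0 columns belonged to no sample. The procedure was tested on simulated data for the esiFLI1 comparison, built with the spread and replicate effect of the blocked fit. There the fit without a block recovered no changed gene at any fold simulated and the blocked fit recovered most. The simulated replicate effect was the same in all 3 groups, as the block assumes, so this result favours the blocked fit by design. It does not show which fit is better for the measured libraries, where the fit without a block called 342 of 12169 genes. A gene not called without a block is not shown to be unchanged.

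The labels number replicates 1 and 2 in each group. Deviations from group means correlated between same-numbered libraries at 0.647 (esiGFP and esiFLI1), 0.589 (esiGFP and esiUSP9X) and 0.644 (esiFLI1 and esiUSP9X), so pairing was taken from the data, and a replicate block was fitted as an alternative. Other alternatives were the pseudocount, filter, scaling, trend, groups fitted and each library left out. Fits without a filter that left out a library, and most blocked variants, were added after seeing the data.

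Named genes were the 10 members, the targets, up to 4 called genes of each list (or the 2 most abundant), and the 3 genes most like each called member. ETS2 was included since it was called between the knockdowns. ELK3, ERF, CIC, RFWD2, DUSP6 and the single marker genes were named after their values were seen. The members and lists were chosen with earlier results of these data known. GC content came from GENCODE v29 transcripts, found for 90.5% of kept genes, and promoters from RefSeq GRCh38.p14 by symbol.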

Additional observations from a re-analysis of the deposited data

Results flagged for a closer look

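Direct comparison of the knockdowns picked out 4 genes whose RNA differed between esiUSP9X and esiFLI1. The log2 difference was 2.33 for ETV4, 1.39 for ETV5 and 1.15 for ETS2, each higher in both esiUSP9X libraries than in both esiFLI1 libraries. ETS1 was lower in esiUSP9X by -0.69 in the fit without a filter on low values. Without a block all 4 calls depended on the libraries included, as given with each result.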

How the results depend on the processing

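Counts here are of 8 genes, or of 10 with no filter, where ETS1 and ERG enter. In esiFLI1 the share of all genes called was 2.81%, 2.87% with no filter, 42.1% with the block and 21.8% with both. Between the knockdowns it was 3.08%, 2.78% with no filter and 41.1% with the block. Shares under other settings are not given here. In the esiFLI1 comparison 2 of the 8 genes were called, and the same number under a pseudocount of 0.1, a filter of 5 FPKM, quantile normalization, scaling to the sum of kept genes, and no trend. It was 3 with no filter and 0 with only the 2 groups compared or with any 1 library left out (0 to 1 with no filter). With the replicate block it was 5, and 4 to 5 when a library was also left out. With the block and a second change it was 6 (no filter), 5 (quantile normalization), 4 (scaled) and 5 (pseudocount), and 0 to 3 with no filter and a library left out. In the esiUSP9X comparison it was 0 in every setting run. Between the knockdowns it was 3, and 5 with the block in all 5 blocked fits on the 6 libraries (4 to 5 with a library left out, 0 with no filter as well). It was 1 under a filter of 5 FPKM, 2 under quantile normalization or scaling, 0 with only the 2 groups compared, and 0 with a library left out (0 to 1 with no filter). Scaling to the sum of kept genes moved the median log2 change of all genes in esiFLI1 from -0.03 to 0.10. Where a group kept a single library, its spread was assumed to be that of the other groups.

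Signs turned only for values not called without a block, and only with a library left out. Each gene's turned log2 values are followed in parentheses by their range over all fits without a block that left out 1 library, and by turned values with the replicate block where there were any. In the esiFLI1 comparison these were ERG blocked with no filter -0.00348, ELK1 0.10 to 0.21 (of -0.47 to 0.21), and ELF1 -0.20 to -0.16 (of -0.20 to 0.42). Others there were GABPA -0.21 to -0.0676 (of -0.21 to 0.62), and COX4I1 0.0508 (of -0.66 to 0.0508). In the esiUSP9X comparison these were ETV1 -0.0907 to -0.0321 (of -0.0907 to 0.47), ETV4 -0.17 (of -0.17 to 0.35), blocked -0.0842 to -0.0104, and ETV5 0.00115 (of -0.21 to 0.00115), blocked 0.12. Others there were ERG blocked with no filter -0.0314 to -0.0106, ETS2 -0.0671 to -0.0264 (of -0.0671 to 0.17), blocked -0.11 to -0.0778, and ELK1 -0.0876 to -0.0275 (of -0.0876 to 0.39). Others there were ELF1 -0.21 to -0.10 (of -0.21 to 0.32), blocked -0.0786, and GABPA -0.25 to -0.23 (of -0.25 to 0.29), blocked -0.0781 to -0.0399. Between the knockdowns these were ERG 0.0137 (no filter), blocked with no filter 0.0178, ELK1 -0.0559 (of -0.0559 to 0.62), and ELF1 0.10 to 0.26 (of -0.36 to 0.26), blocked 0.0469 to 0.0832. Others there were GABPA 0.0605 to 0.23 (of -0.60 to 0.23), SRF -0.0253 (of -0.0253 to 0.82), and IER2 -0.13 (of -0.13 to 1.0002). The cause of these turns was not tested. Depth is unknown, which limits ETS1 and ERG most.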
